A study of Mus musculus with 12 samples.

Results

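Bone marrow derived macrophages of 2 Commd1 knockout mice were compared after 24 h and after 3 h of lipopolysaccharide (LPS), to describe how far the early LPS response had resolved. The comparison used 4 of the 12 samples of the series, chosen by their labels: 2 knockout samples at LPS 24 h and 2 knockout samples at LPS 3 h. In each group, replicate 1 was cells of mouse 3 and replicate 2 cells of mouse 4, and values are given in the order mouse 3, mouse 4. The untreated knockout samples of the same mice, the wildtype samples at LPS 24 h and LPS 3 h, and the untreated wildtype samples (2 wildtype mice, numbers 1 and 2) served for comparison. All cells were cultured from bone marrow for 10 days with 20 ng/mL GM-CSF, and LPS from Escherichia coli 026:B6 was used at 10 ng/mL. The labels call the genotypes Commd1 knockout and Commd1 wildtype and name no further allele, strain, sex or age. With 2 mice per genotype, the tests measured the spread between cultures of very few animals, and differences between mice of one genotype were estimated from a pair only.

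LPS is a component of the outer membrane of Gram-negative bacteria and is sensed by TLR4 together with CD14 and MD-2. Through the adaptor MyD88 the receptor activates NF-kB and MAP kinases, which switch on cytokine and chemokine genes within hours. Through the adaptor TRIF it activates IRF3 and so interferon beta, whose receptor then switches on interferon-stimulated genes by way of STAT proteins and IRF9. The early genes are shut down by inhibitors that are themselves LPS targets, among them IkB alpha (Nfkbia), A20 (Tnfaip3), MAP kinase phosphatases, mRNA decay factors and SOCS proteins. COMMD1 is a subunit of the endosomal CCC complex and is known to limit NF-kB by promoting the turnover of its RelA subunit.

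The promoters of 4 genes on which the following results turn are shown: Il6, Cxcl2, Nfkbia and Ifit1. Levels of all 4 fell between 3 h and 24 h in knockout cells. At 24 h Il6, Nfkbia and Ifit1 were still above untreated knockout cells, by 5.89, 1.62 and 6.29 on the log2 scale. Il6 was below background untreated. Cxcl2 did not differ from untreated past the test (-0.03). They are the 250 bases before the start of the gene in RefSeq (GRCm38.p6), on the strand of the gene. Capitals mark matches, on either strand, to GGGNNTTTC, a core of the NF-kB element, and to AAANNGAAA, a core of the interferon-stimulated response element.

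Il6 (chr5:30012864-30013113, plus strand): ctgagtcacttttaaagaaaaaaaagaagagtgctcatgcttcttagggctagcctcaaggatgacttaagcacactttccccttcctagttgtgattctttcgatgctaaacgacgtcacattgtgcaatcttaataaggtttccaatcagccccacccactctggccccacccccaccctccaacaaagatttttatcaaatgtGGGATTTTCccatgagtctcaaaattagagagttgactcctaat

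Cxcl2 (chr5:90903649-90903898, plus strand): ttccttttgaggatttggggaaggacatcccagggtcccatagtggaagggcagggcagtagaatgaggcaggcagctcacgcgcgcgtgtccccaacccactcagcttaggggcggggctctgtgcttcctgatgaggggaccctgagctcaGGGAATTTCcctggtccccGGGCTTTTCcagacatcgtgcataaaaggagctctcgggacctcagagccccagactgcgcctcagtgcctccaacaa

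Nfkbia (chr12:55492648-55492897, minus strand): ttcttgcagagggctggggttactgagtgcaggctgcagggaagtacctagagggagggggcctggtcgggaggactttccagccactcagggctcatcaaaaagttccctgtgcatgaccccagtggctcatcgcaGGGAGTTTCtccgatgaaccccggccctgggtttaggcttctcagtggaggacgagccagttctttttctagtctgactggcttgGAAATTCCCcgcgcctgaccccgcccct

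Ifit1 (chr19:34640639-34640888, plus strand): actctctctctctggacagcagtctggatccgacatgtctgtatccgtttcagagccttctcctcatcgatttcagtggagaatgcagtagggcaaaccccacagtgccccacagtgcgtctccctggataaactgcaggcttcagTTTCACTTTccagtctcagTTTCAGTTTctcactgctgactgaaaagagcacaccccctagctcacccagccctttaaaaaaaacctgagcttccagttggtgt

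Il6 held 1 match to GGGNNTTTC, 44 to 36 bases before the start, and, in lower case, 1 match to TGANTCA, a core of the AP-1 element, at 249 to 243 bases. Cxcl2 held 2, at 97 to 89 and 78 to 70 bases, and Nfkbia held 2, at 113 to 105 and 28 to 20 bases. Ifit1 held 2 matches to AAANNGAAA, at 104 to 96 and 85 to 77 bases. The promoter of Irf7 held neither motif, nor TGANTCA, TGACGTCA or CACGTG, which were also searched. Over the full window of 300 bases (250 before to 50 after the start, the first listed start of each gene), GGGNNTTTC was found in 4.4% of the 13275 promoters of tested genes. It was found in 5 of 12 promoters of the chemokine list, 7 of 19 of the NF-kB list and 3 of 17 of the cytokine list. AAANNGAAA was found in 8.8% of all promoters and in 20 of 26 promoters of the interferon-stimulated list. In genes that were at least 2-fold higher at 24 h than at 3 h the share with AAANNGAAA was 10.4% of 1661, and in genes at least 2-fold lower it was 7.9% of 1876. The shares with GGGNNTTTC in these sets were 4.7% and 5.4%. Such matches describe the letters of the window and not binding.

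Each sample was hybridised to its own single-colour array, and a level is the log2 processed intensity minus the 75th percentile of that array, so that 0 stands for this percentile. Levels of different probes cannot be ranked against each other. A log2 change is the mean level at 24 h minus that at 3 h, given with its standard error (SE, n = 2 samples per time) and its p from limma adjusted over all genes by Benjamini-Hochberg. The SE rests on a spread pooled over all 6 groups, untreated and wildtype samples included. It can thus be large where the samples compared lie close together. The arrays lay on 3 slides of 4 arrays, 1 slide for each LPS time, so that the effects of LPS time and of slide cannot be told apart in any comparison of 24 h with 3 h. Of all probes, 58.6% and 62.7% were well above background on the knockout 24 h arrays, against 64.0% and 66.4% on the knockout 3 h arrays. The slope of log2 signal on the amount of spiked-in RNA was 0.869 and 0.842 at 24 h and 0.798 and 0.799 at 3 h, a difference whose part in the results was not tested. The array of mouse 3 at 24 h had 589 outlier spots, while the other arrays had 132 to 214. No spot was saturated. Replicates correlated across the tested genes, each by the probe that represents it, with r = 0.9942 at 24 h and 0.9941 at 3 h.

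The Commd1 probe (mm9 chromosome 11, 22856412 to 22856471) read -0.41 and 0.06 in the knockout 24 h samples and -0.48 and 0.07 in the knockout 3 h samples, against 2.70 to 2.89 on the 6 wildtype arrays. Every knockout array was lower than every wildtype array, and the knockout level did not pass the test between the times (log2 change 0.03 ± 0.23, adjusted p = 0.928). Whether this probe lies in the deleted part of the gene is not given in the sources used here. All 11 macrophage markers were well above background on all knockout arrays. The sum of their linear levels was 418 and 441 times the array's 75th percentile at 24 h, against 522 and 442 times at 3 h. Of the 11, 6 rose, 3 fell and 2 did not pass, with a median change of 0.60. Over all genes tested, 26.3% rose and 32.6% fell. The fallers were Lyz2, Csf1r and Cd14, the LPS coreceptor, whose fall is given with the receptors below and lowered the sum. Lyz2, which encodes lysozyme, fell to 3.46 and 3.60 at 24 h, against 4.78 and 4.49 at 3 h (log2 change -1.10 ± 0.12, adjusted p = 7.62e-05). Csf1r, the M-CSF receptor, fell to 6.90 and 6.92 at 24 h, against 7.67 and 7.42 at 3 h (log2 change -0.63 ± 0.10, adjusted p = 0.00071). Siglec1, a lectin receptor inducible by interferon, was at 2.18 and 2.20 at 24 h and -0.59 and -0.96 at 3 h (log2 change 2.96 ± 0.15, adjusted p = 1.52e-06). In bulk RNA, fewer cells of a type and less RNA per cell cannot be told apart.

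Markers of other cell types were followed on the same arrays. The summed linear level of 6 tested dendritic cell markers was 1.02 and 1.17 at 24 h, against 5.84 and 6.70 at 3 h. Zbtb46, a transcription factor of dendritic cells, fell to -1.46 and -1.45 at 24 h, against 1.75 and 1.14 at 3 h (log2 change -2.90 ± 0.18, adjusted p = 3.23e-06). Itgax, which encodes CD11c and is also carried by macrophages grown in GM-CSF, fell to -0.80 and -0.52 at 24 h, against 1.26 and 2.12 at 3 h (log2 change -2.35 ± 0.26, adjusted p = 9.19e-05). Of the 6 tested, 4 fell, where 32.6% of all genes fell. Of the others, 1 did not pass and Clec9a rose, by at least 2.89-fold (adjusted p = 0.00128). Cd209a and Xcr1, defining markers of dendritic cell subsets, did not pass the filter on dim probes. The summed neutrophil marker level was 21.3 and 24.1 at 24 h and 12.0 and 14.0 at 3 h, nearly all of it from Elane, while Ly6g and Retnlg did not pass the filter. Summed B cell, T and NK cell, erythroid and stromal marker levels were 0.70 and 0.78, 6.10 and 5.16, 0.105 and 0.111, and 2.58 and 1.44 at 24 h, against 0.86 and 0.81, 4.67 and 4.49, 0.122 and 0.103, and 3.65 and 2.12 at 3 h. Of the 6 B cell markers, 1 rose, 1 fell and 4 did not pass. The riser was Ms4a1 (adjusted p = 0.00173 in limma), at -4.49 and -4.84 at 24 h, above background on both arrays. Cd3e, a chain of the T cell receptor complex, rose (log2 change 0.46 ± 0.08, adjusted p = 0.00117), a call lost with only the arrays of the groups compared. The T cell markers Cd3d, Cd3g and Cd8a and the erythroid markers Alas2 and Klf1 did not pass the filter. Neither of the 2 tested mast cell, basophil and eosinophil markers was above background at either time. Megakaryocyte markers summed to 41.1 and 53.2 at 24 h and 84.4 and 82.0 at 3 h, nearly all of it from Pf4, while Itga2b and Gp9 did not pass the filter. The part of these cell types in the results was not tested.

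Between 3 h and 24 h of LPS the knockout cells changed widely. Of 22972 genes tested, 13538 (58.9%) passed an adjusted p of 0.05 in limma, 6051 of them higher at 24 h (26.3%) and 7487 lower (32.6%). With normexp background correction, which moved the median change of all genes to 0.13 from its value of -0.09, 7798 genes rose and 5809 fell. A change of at least 2-fold was passed by 5812 genes (25.3%), 2500 of them higher (10.9%) and 3312 lower (14.4%). All 13447 called genes with values from both mice changed in the same direction in mouse 3 and in mouse 4. The calls rest on the mean of both mice, so this agreement was largely set by the selection. Since so many genes passed the test, counts of list members are read against these shares. In the plot of 18 gene lists, the lowest medians were those of inflammatory cytokines (-2.75), mitotic genes (-2.63), NF-kB genes (-2.05) and genes of cholesterol synthesis (-1.72). The cytokine median is drawn at the processed signal and was -1.52 with members below background at their bounds. The highest medians were those of DNA replication genes (0.90) and the COMMD family (0.54).

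**Figure D1:**
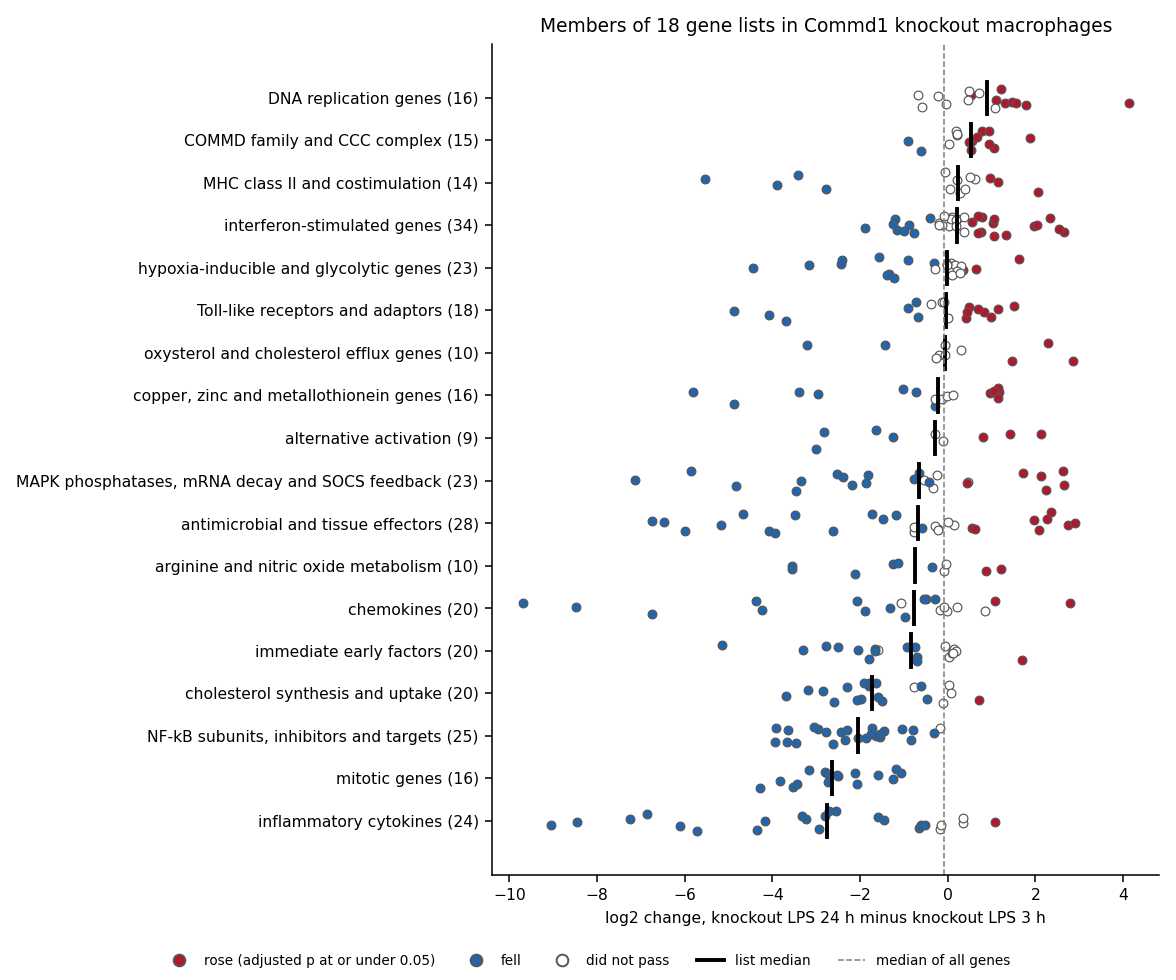
Log2 change of each tested member of 18 gene lists in Commd1 knockout macrophages, LPS 24 h minus LPS 3 h (1 point per gene, number of tested members in brackets). Filled points passed an adjusted p of 0.05, black bars are list medians, and the dashed line is the median of all genes (-0.09). Members below background at one time are drawn at their processed signal, which overstates how well their size is known.

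To ask how far the early response had reversed, early genes were chosen on the wildtype arrays, which are not part of the knockout contrast but share its slides and the variance estimate of the fit. Early induced genes were at least 4-fold higher in wildtype cells after 3 h than untreated (adjusted p at or under 0.05, where 23.2% of all genes rose and 23.3% fell), and early repressed genes at least 4-fold lower. There were 879 early induced and 548 early repressed genes. Between 3 h and 24 h in knockout cells, 32.6% of all genes fell and 26.3% rose. Of the early induced genes, 641 (72.9%) fell, 110 (12.5%) rose and 128 did not pass. Their median change was -1.81 (-1.90 in mouse 3 and -1.70 in mouse 4), and -1.57 where members below background at 24 h were set to their bound. Of the early repressed genes, 414 (75.5%) rose, 20 (3.65%) fell and 114 did not pass, with a median change of 1.63 (1.34 with bounds).

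Most genes of both sets still differed from untreated cells at 24 h. The median level of the early induced genes was -2.98 and -3.05 on the untreated knockout arrays, 1.01 and 0.81 at 3 h, and -0.94 and -1.05 at 24 h. At 24 h, 613 of the 879 (69.7%) were still above the untreated knockout level, 76 (8.65%) were below it and 190 did not pass, while among all genes 26.0% were above and 31.5% below. The median of the early repressed genes was -1.98 and -2.0 untreated, -5.01 and -4.83 at 3 h, and -3.26 and -3.21 at 24 h. Of these, 378 of 548 (69.0%) remained below untreated, 47 were above it and 123 did not pass. The early sets made up a minority of what moved. Of the 2500 genes that rose at least 2-fold, 362 were early repressed (66.1% of that set) and 80 early induced (9.10% of that set), and 2058 (82.3%) belonged to neither. Of the 3312 that fell at least 2-fold, 571 were early induced (65.0% of that set) and 16 early repressed, and 2725 (82.3%) belonged to neither.

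**Figure D2:**
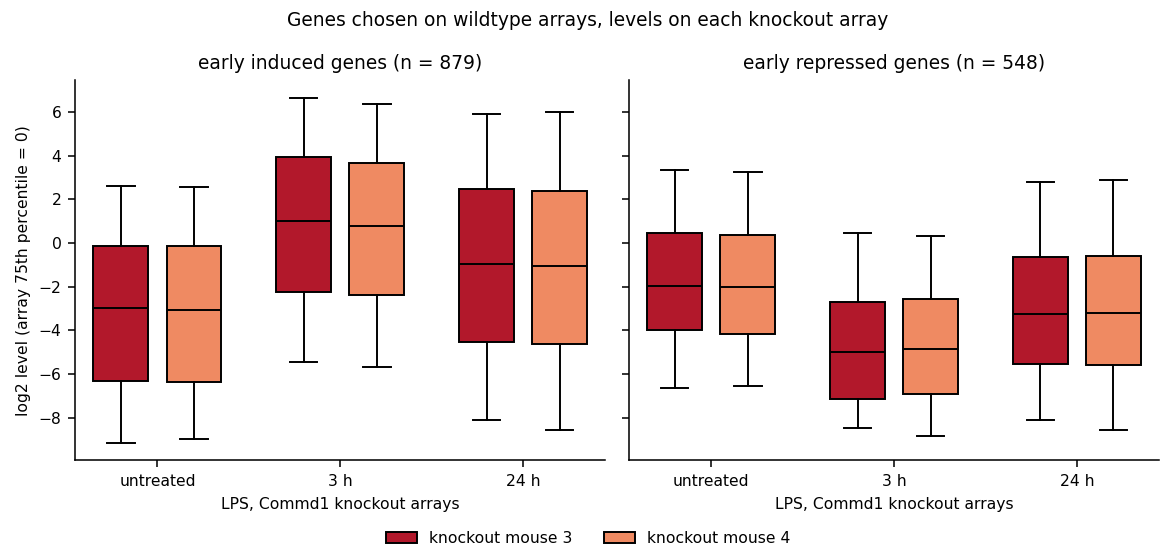
Levels of the 879 early induced and 548 early repressed genes, chosen on wildtype arrays, on each knockout array (log2, array 75th percentile at 0; untreated, LPS 3 h and LPS 24 h). Lines are medians, boxes span the 25th to 75th percentile and whiskers the 5th to 95th. On both 24 h arrays the medians lie between those of the untreated and the 3 h arrays.

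Of 24 inflammatory cytokines tested, 19 fell, where 32.6% of all genes fell, 1 rose and 4 did not pass, and 18 belonged to the early induced set. Il6, the acute phase cytokine, was at -3.55 and -2.99 on the 24 h arrays, against 4.05 and 3.89 on the 3 h arrays. It was 151-fold lower at 24 h (log2 change -7.24 ± 0.20, adjusted p = 1.07e-07), so that 0.663% of the 3 h signal was left, yet it was still well above background on both arrays while both untreated arrays were not. Il1b, the precursor of interleukin 1 beta, was at -0.27 and 0.28 at 24 h and 7.0 and 6.74 at 3 h and was 117-fold lower (log2 change -6.87 ± 0.35, adjusted p = 1.46e-06). Its untreated knockout levels were -0.17 and -1.39, and the difference of 24 h from untreated did not pass the test (log2 difference 0.78, adjusted p = 0.0898). This untreated level was high beside that of wildtype cells, where Il1b read -4.8 and -5.1 untreated and 0.46 and 0.54 at 24 h. Il1a was at -1.41 and -1.52 at 24 h and 4.83 and 4.45 at 3 h (log2 change -6.11 ± 0.18, adjusted p = 1.41e-07). Tnf, the tumor necrosis factor gene, was at 1.15 and 1.37 at 24 h and 5.65 and 5.56 at 3 h and was 20.3-fold lower (log2 change -4.35 ± 0.26, adjusted p = 3.24e-06). It was nevertheless higher at 24 h than untreated by 4.30 on the log2 scale (adjusted p = 3.63e-06). In each of these genes the 24 h and 3 h arrays were far apart and the mice close together.

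Other cytokine messages went below background by 24 h. Il12b, which encodes the p40 chain shared by interleukins 12 and 23, was at 0.97 and 0.87 at 3 h and was at least 136-fold lower at 24 h (adjusted p = 4.29e-07). For Il33, an alarmin, the 3 h levels were 1.07 and 0.28 and the fall was at least 115-fold (adjusted p = 5.93e-06). Csf3, the gene of G-CSF, was faint at 3 h (-5.44 and -6.24), and its fall of at least 1.25-fold (adjusted p = 0.00014) was -0.17 and not past the test with normexp background correction. In all, 7 members of the list were below background on both 24 h arrays, and the list median with these at their bounds was -1.52.

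A few cytokine genes did not pass or changed less. Ifnb1, interferon beta itself, was at 1.91 and 1.74 at 24 h and 1.60 and 1.35 at 3 h, a difference that did not pass (log2 change 0.35 ± 0.23, adjusted p = 0.217), and was below background untreated. Il1rn, which encodes the interleukin 1 receptor antagonist, was at 4.23 and 3.77 at 24 h and 4.45 and 3.85 at 3 h (log2 change -0.15 ± 0.26, adjusted p = 0.649). The mice differed more than the times, which overlapped. Il10, an anti-inflammatory cytokine, was at 0.84 and 0.66 at 24 h and 1.61 and 1.18 at 3 h and fell slightly (log2 change -0.65 ± 0.17, adjusted p = 0.00985), a call lost without mouse 4 at 24 h or without mouse 3 at 3 h. Osm, which encodes oncostatin M, was the sole riser of the list, at -0.20 and 0.01 at 24 h against -1.05 and -1.31 at 3 h (log2 change 1.08 ± 0.12, adjusted p = 7.62e-05).

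**Figure D3:**
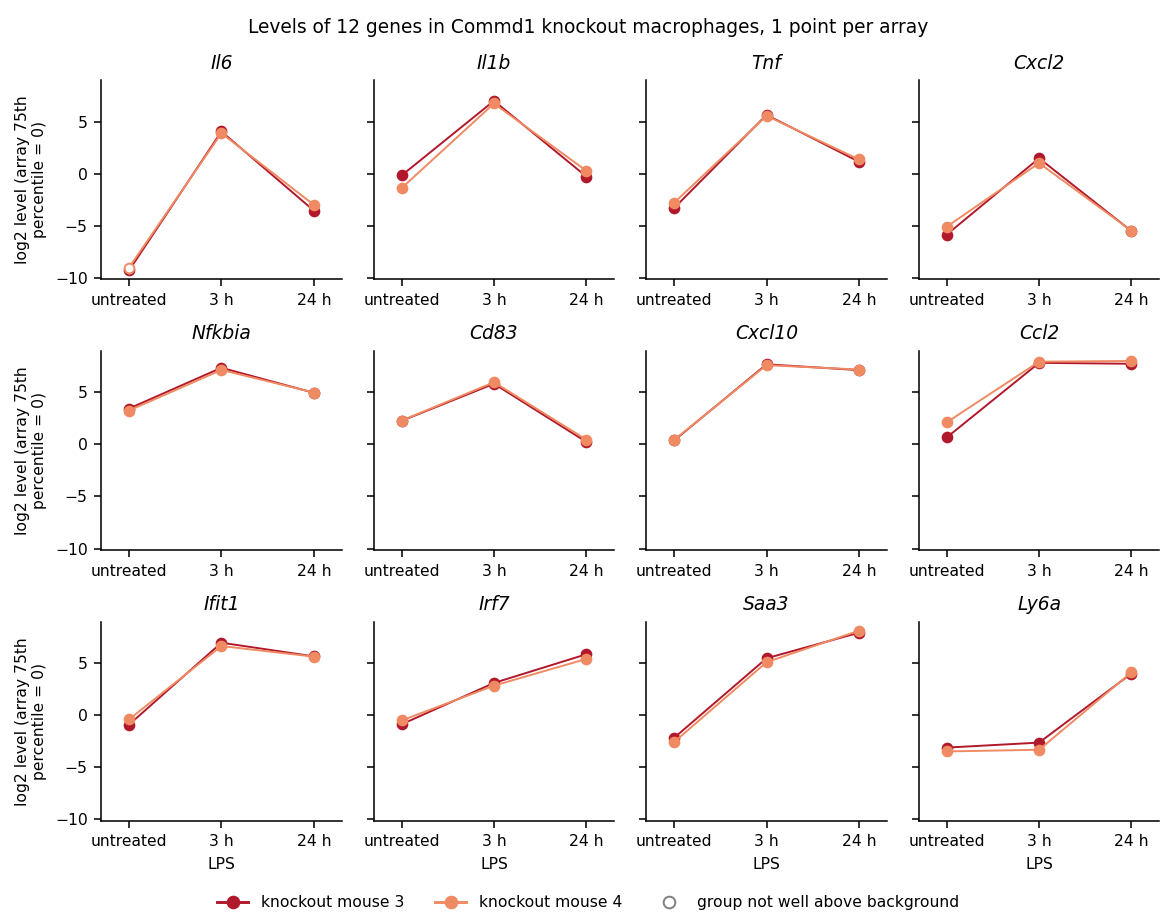
Levels of 12 genes on the 6 knockout arrays, untreated and after LPS 3 h and 24 h (log2, array 75th percentile at 0). Lines join the samples of mouse 3 and of mouse 4, and open points mark groups not well above background. Il6, Il1b, Tnf, Cxcl2, Nfkbia and Cd83 were lower at 24 h than at 3 h, while Irf7, Saa3 and Ly6a were higher.

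Chemokines were divided. Of 20 tested (Ccl20 did not pass the filter), 12 fell, 2 rose and 6 did not pass, and the median was -0.76. The shares of all genes were 32.6% for falls and 26.3% for rises. The neutrophil attractants fell furthest. Cxcl2 was at -5.51 and -5.49 at 24 h and 1.48 and 1.02 at 3 h and was 108-fold lower (log2 change -6.75 ± 0.23, adjusted p = 2.28e-07). The 24 h levels lay between the untreated ones of -5.85 and -5.09 (log2 difference -0.03, adjusted p = 0.923). Cxcl3, at 1.41 and 1.44 at 3 h, and Cxcl1, at 0.85 and 0.98 at 3 h, were below background at 24 h and at least 193-fold and at least 135-fold lower (adjusted p = 2.38e-08 and 2.48e-07). Ccl22, an attractant of T cells, was at least 4.6-fold lower (adjusted p = 6.09e-06).

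Several attractants of monocytes and T cells did not pass. Ccl2, the main monocyte attractant, was at 7.74 and 8.01 at 24 h and 7.83 and 7.94 at 3 h (log2 change -0.01 ± 0.47, adjusted p = 0.985), and the 24 h level exceeded untreated by 6.48 (adjusted p = 9.26e-06). Ccl5 was at 8.03 and 8.02 at 24 h and 7.85 and 7.75 at 3 h (log2 change 0.22 ± 0.21, adjusted p = 0.402). Cxcl9, an interferon-inducible ligand of CXCR3, was at 3.64 and 4.12 at 24 h and 3.1 and 2.97 at 3 h (log2 change 0.84 ± 0.76, adjusted p = 0.364). The times overlapped for Ccl2, while Ccl5 and Cxcl9 read higher on both 24 h arrays. The SEs of Ccl2 and Cxcl9 also hold the spread of the untreated arrays. For Ccl2 these read 0.66 and 2.11 in knockout and 3.14 and 4.28 in wildtype cells. For Cxcl9 they read -6.9 and -8.1 in knockout and -5.8 and -8.5 in wildtype cells, with 1 array of each genotype above background. Cxcl10, another CXCR3 ligand, was at 7.13 and 7.19 at 24 h and 7.69 and 7.61 at 3 h and fell by a little (log2 change -0.49 ± 0.16, adjusted p = 0.0291), a call lost without any 1 of the 4 arrays and without the filter. Ccl3 fell to 5.55 and 6.02 at 24 h, against 7.12 and 7.07 at 3 h (log2 change -1.31 ± 0.22, adjusted p = 0.000938). Ccl8, a monocyte attractant, rose to 6.2 and 6.28 at 24 h, against 3.57 and 3.32 at 3 h (log2 change 2.8 ± 0.21, adjusted p = 9.24e-06), and Ccl12 was the other riser.

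The NF-kB list fell almost as a whole. Of 25 genes tested (Bcl2a1b did not pass the filter), all were above background at both times and 20 were early induced. Of the 25, 24 fell, where 32.6% of all genes fell, and none rose. Cyld, a deubiquitinase, was the exception (log2 change -0.17 ± 0.13, adjusted p = 0.308). Nfkbia, which encodes IkB alpha, was at 4.95 and 4.98 at 24 h and 7.36 and 7.15 at 3 h and was 4.88-fold lower (log2 change -2.29 ± 0.11, adjusted p = 9.04e-07), still above untreated by 1.62 (adjusted p = 5.11e-06). Tnfaip3, which encodes the ubiquitin-editing inhibitor A20, was at 3.45 and 3.78 at 24 h and 7.26 and 6.91 at 3 h (log2 change -3.47 ± 0.15, adjusted p = 7.25e-07), also above untreated at 24 h by 2.76 (adjusted p = 2.02e-06). Nfkbiz, a nuclear IkB that promotes Il6 transcription, was at -3.16 and -3.40 at 24 h and 0.71 and 0.56 at 3 h (log2 change -3.92 ± 0.12, adjusted p = 1.71e-07). Its 24 h difference from untreated was 0.32 (adjusted p = 0.052). Among the subunit genes, Rela was 2.06-fold lower, Relb 2.92-fold, Nfkb2 5.38-fold, Rel 6.82-fold and Nfkb1 7.79-fold. The lowest change of the list was that of the costimulatory receptor Cd40, at 2.63 and 2.73 at 24 h and 6.74 and 6.48 at 3 h (log2 change -3.93 ± 0.14, adjusted p = 3.16e-07). No member of the list overlapped between the times, Cyld included. The share of all genes without overlap was not counted, so this is no result about the list or about Cyld.

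Immediate early transcription factors mostly fell or did not pass. Of 20 tested (Egr3 and Nr4a3 did not pass the filter), 12 fell, 1 rose and 7 did not pass. Among all genes 32.6% fell and 26.3% rose. Maff, a small Maf protein, fell to -2.56 and -2.27 at 24 h, against 2.97 and 2.48 at 3 h (log2 change -5.14 ± 0.17, adjusted p = 2.16e-07). Fos, at 0.05 and 0.71 at 24 h and 0.42 and 0.43 at 3 h (log2 change -0.05 ± 0.24, adjusted p = 0.872), and Atf3, at 5.12 and 4.91 at 24 h and 4.87 and 4.88 at 3 h (log2 change 0.14 ± 0.14, adjusted p = 0.433), did not pass. Egr1 was at -2.24 and -1.55 at 24 h and -0.89 and -1.04 at 3 h (log2 change -0.93 ± 0.25, adjusted p = 0.0128), a call lost without mouse 3 at either time. Jun rose, with 2.93 and 2.63 at 24 h and 1.20 and 0.98 at 3 h (log2 change 1.69 ± 0.23, adjusted p = 0.000293).

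Of 23 feedback genes, 13 fell, where 32.6% of all genes fell, and 6 rose, a share close to that of all genes (26.3%). Cish, a SOCS family inhibitor induced by STAT5, was 139.6-fold lower, at -3.07 and -3.04 at 24 h against 4.14 and 4.01 at 3 h (log2 change -7.13 ± 0.13, adjusted p = 2.38e-08), and its 24 h level differed from untreated by -1.73 (adjusted p = 1.21e-05). Socs3 fell to 4.98 and 4.88 at 24 h, against 7.53 and 7.38 at 3 h (log2 change -2.53 ± 0.23, adjusted p = 3.03e-05), and Socs1 to 4.17 and 4.20 at 24 h, against 6.07 and 5.95 at 3 h (log2 change -1.82 ± 0.10, adjusted p = 2.43e-06). Both stayed above untreated at 24 h, by 2.74 (adjusted p = 2.18e-05) and 5.91 (adjusted p = 1.85e-08). The phosphatase gene Dusp2 was 57.6-fold lower (log2 change -5.85 ± 0.19, adjusted p = 1.89e-07), while Dusp1 did not pass (log2 change -0.24 ± 0.11, adjusted p = 0.0832). Zfp36, which encodes the mRNA decay factor tristetraprolin, fell to 1.53 and 1.46 at 24 h, against 3.52 and 3.21 at 3 h (log2 change -1.87 ± 0.16, adjusted p = 2.12e-05). Its relatives went the other way: Zfp36l1 was at 1.66 and 2.08 at 24 h and -0.46 and -1.11 at 3 h (log2 change 2.65 ± 0.24, adjusted p = 2.72e-05), and Zfp36l2 was 4.4-fold higher (log2 change 2.14 ± 0.18, adjusted p = 1.67e-05). Dusp6, Trib1, Dusp10 and Zc3h12c were the other risers.

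Interferon-stimulated genes remained above untreated and moved both ways after 3 h. Of 34 tested, 14 rose, where 26.3% of all genes rose, 8 fell and 12 did not pass, with a median change of 0.20, and 28 belonged to the early induced set. At 24 h, 33 of the 34 were above their untreated level (26.0% of all genes were). Irf7, the transcription factor that amplifies interferon production, was at 5.84 and 5.39 at 24 h and 3.08 and 2.83 at 3 h and was 6.32-fold higher (log2 change 2.66 ± 0.20, adjusted p = 1.06e-05). Isg20, an antiviral exonuclease, was at 6.39 and 6.28 at 24 h and 4.54 and 4.06 at 3 h (log2 change 2.04 ± 0.14, adjusted p = 7.32e-06). Bst2, which encodes tetherin, was at 8.06 and 7.99 at 24 h and 5.81 and 5.61 at 3 h (log2 change 2.32 ± 0.10, adjusted p = 6.81e-07). The 24 h and 3 h arrays of these genes did not overlap. Ifi44 also rose, but the 3 h levels of the mice were far apart, 3.93 and 1.42, against 5.40 and 5.05 at 24 h (log2 change 2.55 ± 0.92, adjusted p = 0.0415). Zbp1, a sensor of nucleic acids, rose to 4.85 and 5.05 at 24 h, against 4.12 and 3.68 at 3 h (log2 change 1.05 ± 0.14, adjusted p = 0.000294).

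Among the 12 that did not pass, Mx1, an antiviral GTPase, was at 6.99 and 6.96 at 24 h and 7.04 and 6.85 at 3 h (log2 change 0.02 ± 0.13, adjusted p = 0.896). Isg15, a ubiquitin-like modifier, was at 7.97 and 8.03 at 24 h and 7.71 and 7.55 at 3 h (log2 change 0.37 ± 0.16, adjusted p = 0.0748), and passed with the mean over its probes (0.55, adjusted p = 0.0206). Rsad2, which encodes viperin, was at 7.40 and 7.51 at 24 h and 7.76 and 7.55 at 3 h (log2 change -0.20 ± 0.16, adjusted p = 0.302). A minority fell. Ifit1, whose promoter is shown above, was at 5.63 and 5.61 at 24 h and 6.95 and 6.63 at 3 h (log2 change -1.17 ± 0.17, adjusted p = 0.000465), and remained 6.29 above untreated on the log2 scale (adjusted p = 6.86e-08). Gbp5, an inflammasome-related GTPase, fell to 3.13 and 2.82 at 24 h, against 4.98 and 4.74 at 3 h (log2 change -1.88 ± 0.16, adjusted p = 1.9e-05). Irf1 fell to 6.38 and 6.35 at 24 h, against 7.69 and 7.51 at 3 h (log2 change -1.24 ± 0.15, adjusted p = 0.000177), and Irf8, the member not above untreated at 24 h, to 3.91 and 3.98 at 24 h, against 4.75 and 4.90 at 3 h (log2 change -0.88 ± 0.13, adjusted p = 0.000536).

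**Figure D4:**
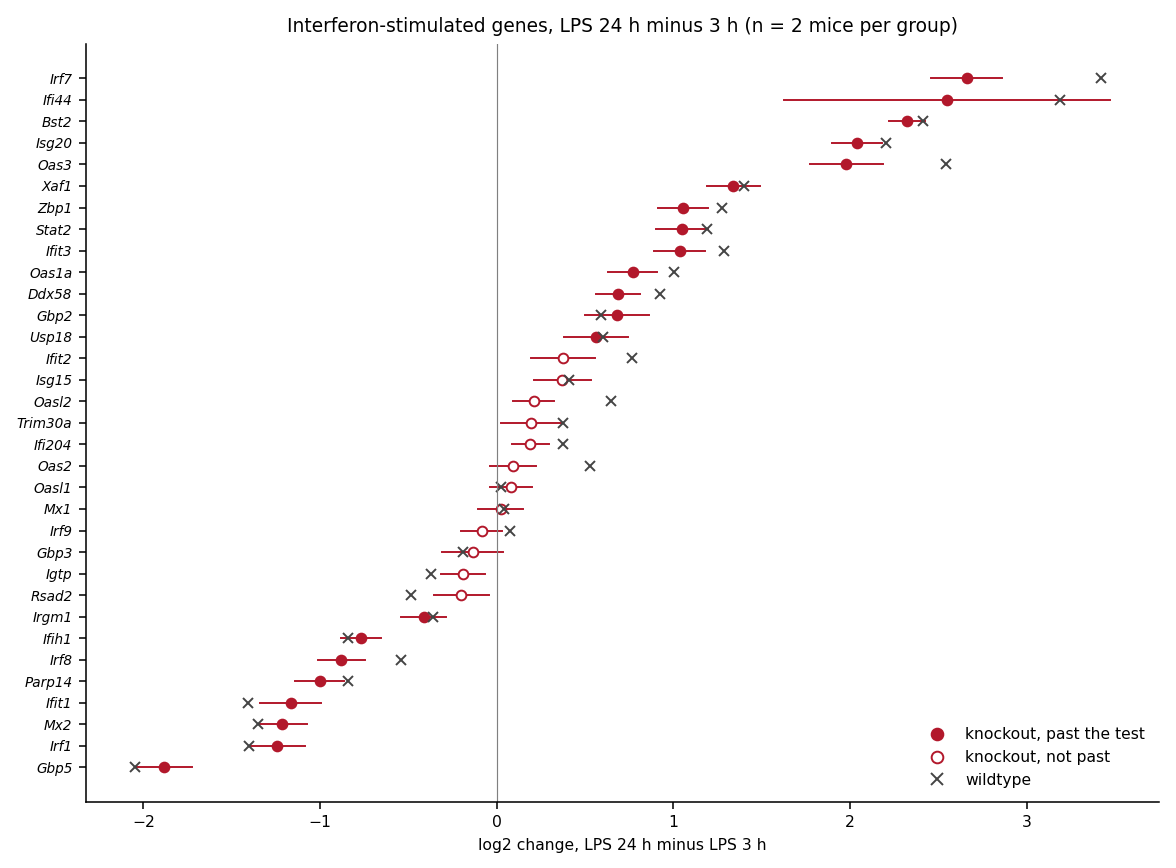
Log2 change, LPS 24 h minus LPS 3 h, of 33 of the 34 interferon-stimulated genes. Circles with bars are the knockout change ± SE (filled where the adjusted p was at or under 0.05) and crosses the wildtype change. Of the whole list 14 genes rose in knockout cells, led by Irf7 (2.66), and 8 fell, the lowest being Gbp5 (-1.88).

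Of 14 genes of antigen presentation and costimulation tested, 3 rose and 4 fell, shares close to those of all genes. Cd83, an early activation marker, was 46.8-fold lower at 24 h, at 0.24 and 0.45 at 24 h against 5.82 and 5.96 at 3 h (log2 change -5.55 ± 0.10, adjusted p = 2.38e-08), and its 24 h level differed from untreated by -1.92 (adjusted p = 1.48e-06). Ciita, the master regulator of MHC class II, fell to -3.76 and -4.55 at 24 h, against -1.47 and -1.31 at 3 h (log2 change -2.77 ± 0.35, adjusted p = 0.000208). The class II gene H2-Ab1 was at 3.63 and 3.52 at 24 h and 3.58 and 2.53 at 3 h (log2 change 0.52 ± 0.41, adjusted p = 0.306). Here the mice differed by about 1 on the log2 scale at 3 h, and the times overlapped. The peptide loading gene H2-DMa rose (log2 change 0.97 ± 0.13, adjusted p = 0.000323), as did H2-DMb1 (log2 change 1.14 ± 0.11, adjusted p = 3.95e-05). Cd86 did not pass (log2 change 0.29 ± 0.20, adjusted p = 0.237). Cd274, which encodes PD-L1, was at 5.88 and 6.17 at 24 h and 5.83 and 5.44 at 3 h and missed the threshold (log2 change 0.39 ± 0.15, adjusted p = 0.0501). Pdcd1lg2, which encodes PD-L2, rose to -2.58 and -2.31 at 24 h, against -4.52 and -4.50 at 3 h (log2 change 2.06 ± 0.11, adjusted p = 1.81e-06).

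Effector genes moved in both directions. Of 28 antimicrobial and tissue effectors, 13 fell, where 32.6% of all genes fell, 8 rose and 7 did not pass. Ptgs2, which encodes cyclooxygenase 2, fell to -5.29 and -4.54 at 24 h, against 1.21 and 0.95 at 3 h (log2 change -6.00 ± 0.22, adjusted p = 2.8e-07). F3, the gene of tissue factor, was at 0.31 and -0.02 at 3 h and was at least 79.3-fold lower at 24 h (adjusted p = 7.47e-07). Mmp13, a collagenase, was 36.1-fold lower (log2 change -5.17 ± 0.13, adjusted p = 1.02e-07). The share that rose was close to that of all genes. Saa3, serum amyloid A3, was at 7.91 and 8.10 at 24 h and 5.45 and 5.08 at 3 h (log2 change 2.74 ± 0.27, adjusted p = 4.59e-05). Cfb, complement factor B, was at 5.28 and 5.13 at 24 h and 2.37 and 2.24 at 3 h (log2 change 2.90 ± 0.21, adjusted p = 7.75e-06), and Lcn2, an iron-sequestering protein, at 2.42 and 2.90 at 24 h and 0.61 and 0.56 at 3 h (log2 change 2.07 ± 0.17, adjusted p = 1.85e-05). These 3 genes were higher on both 24 h arrays than on either 3 h array. C3, the central complement component, did not pass (log2 change 0.14 ± 0.17, adjusted p = 0.512). Hp, Saa1, Marco, Slpi and Ptges were the other risers. Nos2, the inducible nitric oxide synthase, fell to 2.14 and 2.20 at 24 h, against 3.87 and 3.91 at 3 h (log2 change -1.72 ± 0.09, adjusted p = 1.47e-06), and Acod1, which makes itaconate, to 7.11 and 7.34 at 24 h, against 7.89 and 7.72 at 3 h (log2 change -0.58 ± 0.12, adjusted p = 0.0032). Both remained above untreated, by 3.35 (adjusted p = 6e-08) and 9.73 (adjusted p = 7.16e-09).

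Of 10 genes of arginine and nitric oxide metabolism, 6 fell and 2 rose, where 32.6% of all genes fell and 26.3% rose. Arg2, mitochondrial arginase, fell to -5.37 and -5.56 at 24 h, against -1.55 and -2.25 at 3 h (log2 change -3.56 ± 0.22, adjusted p = 3.85e-06), and Slc7a2, an arginine transporter, was 11.6-fold lower (log2 change -3.54 ± 0.14, adjusted p = 3.73e-07). Ass1, which regenerates arginine from citrulline, rose to 1.91 and 2.15 at 24 h, against 0.83 and 0.77 at 3 h (log2 change 1.23 ± 0.20, adjusted p = 0.000921). Arg1 was above background on 1 of 2 arrays at 24 h and on neither at 3 h, a rise of at least 1.36-fold (adjusted p = 0.0236) that was lost without any 1 of the 4 arrays. Of 9 genes linked to alternative activation (Retnla, Cd163 and Alox15 did not pass the filter), 4 fell and 3 rose. Both counts are read against the same shares of all genes. Mrc1, the mannose receptor, was 8.02-fold lower at 24 h, at 2.18 and 2.52 at 24 h against 5.34 and 5.36 at 3 h (log2 change -3.0 ± 0.11, adjusted p = 3.64e-07), and its 24 h level differed from untreated by -2.99 (adjusted p = 2.88e-07). Pparg, the lipid sensing nuclear receptor, rose to 1.80 and 1.83 at 24 h, against -0.43 and -0.19 at 3 h (log2 change 2.13 ± 0.12, adjusted p = 2.56e-06).

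Of 23 hypoxia-inducible and glycolytic genes, 10 fell and 3 rose, where 32.6% of all genes fell and 26.3% rose. Hif1a, the oxygen-regulated factor itself, fell to 0.44 and 1.02 at 24 h, against 3.43 and 2.86 at 3 h (log2 change -2.41 ± 0.24, adjusted p = 4.49e-05), and hexokinase 2 (Hk2) to 2.31 and 2.26 at 24 h, against 5.77 and 5.13 at 3 h (log2 change -3.16 ± 0.19, adjusted p = 3.05e-06). Ndrg1 fell furthest (log2 change -4.45 ± 0.08, adjusted p = 2.38e-08). Ldha, lactate dehydrogenase A, was at 7.10 and 7.21 at 24 h and 6.77 and 6.87 at 3 h (log2 change 0.34 ± 0.09, adjusted p = 0.00878), Pkm rose (log2 change 0.65 ± 0.18, adjusted p = 0.0132) and Eno1 fell (log2 change -0.32 ± 0.10, adjusted p = 0.0263). Gapdh (log2 change -0.02 ± 0.11, adjusted p = 0.897), Aldoa, Pgk1, Tpi1 and Pgam1 did not pass.

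Genes of cholesterol synthesis and uptake, targets of the factor SREBP2, mostly fell. Of 20 tested, 15 fell, where 32.6% of all genes fell, 1 rose and 4 did not pass, and at 24 h 13 lay below the untreated level (31.5% of all genes did). None belonged to the early sets. Sc5d was fitted without mouse 3 at 24 h, where its spot was an outlier. Cyp51, a demethylase of the pathway, was at -3.51 and -3.28 at 24 h and -0.16 and -0.25 at 3 h (log2 change -3.19 ± 0.18, adjusted p = 2.48e-06). Insig1, which retains the SREBP complex in the endoplasmic reticulum, was at -3.32 and -3.34 at 24 h and -0.68 and -0.79 at 3 h (log2 change -2.60 ± 0.15, adjusted p = 2.68e-06). Idi1, an isomerase of the pathway, was at 0.20 and 0.55 at 24 h and 3.26 and 3.17 at 3 h (log2 change -2.84 ± 0.19, adjusted p = 5.55e-06). On both 24 h arrays these 3 genes were below both 3 h arrays. Srebf2 itself was higher at 24 h (log2 change 0.72 ± 0.09, adjusted p = 0.000159), but -0.41 with the mean over its probes. Of 10 oxysterol and efflux genes, 3 rose and 2 fell, where 26.3% of all genes rose and 32.6% fell. Nr1h3, which encodes the oxysterol receptor LXR alpha, rose to 4.73 and 4.77 at 24 h, against 1.81 and 1.99 at 3 h (log2 change 2.85 ± 0.09, adjusted p = 1.88e-07), and the efflux transporter Abcg1 to 5.49 and 5.35 at 24 h, against 3.14 and 3.13 at 3 h (log2 change 2.29 ± 0.15, adjusted p = 4.69e-06). Ch25h, which makes 25-hydroxycholesterol, fell to -0.63 and -0.95 at 24 h, against 2.44 and 2.41 at 3 h (log2 change -3.21 ± 0.33, adjusted p = 6.37e-05), and was still 4.29 above untreated (adjusted p = 1.41e-05).

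Mitotic genes and DNA replication genes moved apart. All 16 mitotic genes tested fell, where 32.6% of all genes fell. At 24 h all 16 were below untreated (31.5% of all genes were). Cenpa was fitted without mouse 3 at 24 h. Ccnb2, cyclin B2, was 19.5-fold lower at 24 h, at -1.40 and -0.58 at 24 h against 3.18 and 3.42 at 3 h (log2 change -4.29 ± 0.26, adjusted p = 3.16e-06). Mki67, the proliferation antigen Ki-67, was at 0.54 and 1.12 at 24 h and 3.96 and 4.01 at 3 h (log2 change -3.16 ± 0.20, adjusted p = 3.93e-06). Cdk1, the mitotic kinase, was at 0.12 and 0.70 at 24 h and 1.39 and 1.93 at 3 h (log2 change -1.25 ± 0.27, adjusted p = 0.00392). The smallest change was that of Ttk (-1.06). Of 16 genes of DNA replication tested, 8 rose, where 26.3% of all genes rose, none fell and 8 did not pass. Cdc6, a licensing factor, was higher at 24 h, with -2.76 and -1.87, than at 3 h, with -6.66 and -6.24, where it was above background on 1 of 2 arrays (log2 change 4.13 ± 0.33, adjusted p = 1.37e-05). Pcna, the replication clamp, was at 6.13 and 6.39 at 24 h and 4.78 and 5.13 at 3 h (log2 change 1.30 ± 0.23, adjusted p = 0.00128). Mcm2, a helicase subunit, was at 0.54 and 0.64 at 24 h and -1.83 and -0.58 at 3 h (log2 change 1.79 ± 0.44, adjusted p = 0.00734), with the mice far apart at 3 h. The count of replication genes that rose was less firm than that of the mitotic genes: it was 5 with only the arrays of the groups compared, and between 5 and 12 when 1 array was left out. With mouse as a block 2 replication genes fell.

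Among the receptors for LPS and other microbial products, Tlr2 and Tlr4 moved in opposite directions. Of 18 tested, 8 rose and 6 fell, where 26.3% of all genes rose and 32.6% fell. Tlr4, the LPS receptor, was at 2.08 and 2.34 at 24 h and 0.82 and 0.57 at 3 h (log2 change 1.52 ± 0.12, adjusted p = 1.33e-05). Cd14, its coreceptor, was at 2.83 and 2.77 at 24 h and 7.02 and 6.73 at 3 h and was 16.9-fold lower (log2 change -4.08 ± 0.12, adjusted p = 1.42e-07). Its 24 h level differed from untreated by -1.16 (adjusted p = 7.89e-05). Tlr2, the receptor for bacterial lipoproteins, was at 1.64 and 1.91 at 24 h and 6.77 and 6.52 at 3 h (log2 change -4.87 ± 0.18, adjusted p = 3.15e-07). Ly96, which encodes MD-2, did not pass (log2 change -0.13 ± 0.13, adjusted p = 0.417). Myd88 fell (log2 change -0.68 ± 0.12, adjusted p = 0.00135), while Ticam1, which encodes TRIF, rose to 0.02 and -0.07 at 24 h, against -1.17 and -1.15 at 3 h (log2 change 1.14 ± 0.08, adjusted p = 6.64e-06).

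Of 16 genes of copper, zinc and metallothioneins, 7 fell and 5 rose, where 32.6% of all genes fell and 26.3% rose. Mt2, metallothionein 2, was 56.5-fold lower, at 0.74 and 1.66 at 24 h against 7.14 and 6.90 at 3 h (log2 change -5.82 ± 0.28, adjusted p = 1.11e-06), and Mt1 fell to 3.25 and 3.94 at 24 h, against 6.64 and 6.45 at 3 h (log2 change -2.95 ± 0.20, adjusted p = 5.33e-06). Atp7a, the copper exporting ATPase whose trafficking depends on the CCC complex, rose to 2.36 and 2.42 at 24 h, against 1.48 and 1.38 at 3 h (log2 change 0.97 ± 0.10, adjusted p = 6.67e-05). Slc31a2, a copper transporter of intracellular membranes, rose to 4.74 and 4.70 at 24 h, against 3.66 and 3.43 at 3 h (log2 change 1.18 ± 0.11, adjusted p = 3.73e-05). Of the 15 genes of the COMMD family and the CCC complex tested, Commd1 included, 9 rose and 2 fell. These counts are read against the same shares of all genes. Vps26c, a retriever subunit, was 3.65-fold higher at 24 h, at 3.79 and 3.99 at 24 h against 1.96 and 2.08 at 3 h (log2 change 1.87 ± 0.09, adjusted p = 1.25e-06), and Commd5 2.08-fold (log2 change 1.06 ± 0.11, adjusted p = 7.64e-05). Ccdc93, a coiled-coil subunit of the CCC complex, fell to 0.00 and 0.11 at 24 h, against 1.01 and 0.93 at 3 h (log2 change -0.91 ± 0.12, adjusted p = 0.000232), and Ccdc22 was the other faller. The other 7 risers had log2 changes of 0.49 to 0.95.

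The largest falls over all genes, among those above background at both times, included those of Il6, Rnd1, Cish, Sphk1, Il1b, Cxcl2, Edn1, Noct and Il1a, with log2 changes of -7.24 to -6.11. Rnd1, a small GTPase, was at -0.73 and -0.65 at 24 h and 6.54 and 6.34 at 3 h (log2 change -7.13 ± 0.11, adjusted p = 2.38e-08). Sphk1, sphingosine kinase 1, was at -3.59 and -3.62 at 24 h and 3.86 and 3.17 at 3 h (log2 change -7.12 ± 0.19, adjusted p = 1.03e-07). These genes lay on both 24 h arrays far below both 3 h arrays. The largest lower bound was that of Olr1, which encodes a receptor for oxidised LDL. It was at 3.00 and 2.65 at 3 h and below background at 24 h and untreated, at least 508-fold lower at 24 h (adjusted p = 5.95e-08).

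Among genes above background at both times, the largest rises were those of Ly6a, Ly6c1, 9030619P08Rik, Arrdc3, AU022793, Angpt2, F8, Tmem86a, A530064D06Rik and 5033406O09Rik, with log2 changes of 7.03 to 5.42. Ly6a, the surface protein Sca-1, was at 3.99 and 4.10 at 24 h and -2.64 and -3.33 at 3 h and was 131-fold higher (log2 change 7.03 ± 0.22, adjusted p = 1.75e-07). Ly6c1, a surface protein of the same family, was at 5.18 and 5.50 at 24 h and -1.21 and -2.04 at 3 h (log2 change 6.96 ± 0.25, adjusted p = 2.8e-07). Untreated levels were -3.12 and -3.49 for Ly6a and -1.96 and -2.09 for Ly6c1, near those at 3 h. Members of the Ly6 family are alike in sequence, and how far their probes share signal was not tested. Il23r, the receptor chain for interleukin 23, was at 0.14 and 0.33 at 24 h and below background at 3 h and untreated, a rise of at least 103-fold (adjusted p = 1.41e-07). F8, the coagulation factor VIII gene, was at -0.78 and -0.83 at 24 h and -6.07 and -6.59 at 3 h (log2 change 5.53 ± 0.26, adjusted p = 1.01e-06). Gm13986, Trav3-4, Meikin, Ly6a2 and Gm9733 followed by lower bound, with at least 16.2-fold to at least 22.6-fold.

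Other large risers had been repressed early. Arrdc3, an alpha arrestin, was at 2.12 and 2.09 at 24 h and -3.87 and -3.57 at 3 h and was 56.7-fold higher (log2 change 5.83 ± 0.21, adjusted p = 2.8e-07). With untreated levels of 2.14 and 1.83, its 24 h mean differed from the untreated mean by 0.12, which did not pass (adjusted p = 0.646). Tmem86a, a lysoplasmalogenase, was at 3.42 and 3.60 at 24 h and -1.92 and -2.05 at 3 h (log2 change 5.50 ± 0.10, adjusted p = 2.38e-08). Angpt2, angiopoietin 2, was at 0.47 and 0.73 at 24 h and -4.92 and -5.28 at 3 h (log2 change 5.70 ± 0.17, adjusted p = 1.41e-07), and exceeded untreated at 24 h by 3.61 (adjusted p = 8.98e-07). At the other end, Kcne3, Eef1aknmt, Etl4, Nlrp1b and A630026N12Rik were the early repressed genes with the smallest change. Nlrp1b, an inflammasome sensor, was at -1.67 and -1.75 at 24 h and -1.61 and -2.09 at 3 h (log2 change 0.14 ± 0.17, adjusted p = 0.529). The early induced genes with the smallest change were Adar, Ccl2, Mx1, Ifi211 and Slamf7. Adar, an RNA editing enzyme inducible by interferon, was at 4.05 and 3.92 at 24 h and 4.11 and 3.87 at 3 h (log2 change -0.01 ± 0.11, adjusted p = 0.963).

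The same contrast in wildtype cells, 24 h against 3 h, passed for 12078 genes (52.6%). The test of the difference between the genotypes' changes passed for 1 of 22972 genes (0.00435%), and 3547 genes (15.4%) had an unadjusted p under 0.05. The gene past the test was Syne2, which encodes nesprin 2, a protein that links the nucleus to the cytoskeleton. It was at -5.87 and -5.62 at 24 h and -1.02 and -1.12 at 3 h in knockout cells, against -4.15 and -4.05 at 24 h and -1.33 and -1.36 at 3 h in wildtype cells. The change in knockout minus that in wildtype cells was -1.92 ± 0.17 on the log2 scale (SE, adjusted p = 0.0493), and the changes of the knockout mice lay below those of both wildtype mice. The call was lost with only the arrays of the groups compared, with mouse as a block, without the filter on dim probes and with the mean over probes. Between 0 and 216 genes passed when 1 array was left out, 216 of them without mouse 4 at 3 h and 0 without mouse 3 at 3 h. Over all genes the median size of the change was 0.55 in knockout and 0.46 in wildtype cells. The slope on spiked-in RNA was 0.869 and 0.842 on the knockout and 0.824 and 0.820 on the wildtype arrays at 24 h, and 0.798 and 0.799 on the knockout and 0.743 and 0.743 on the wildtype arrays at 3 h. Its part in the genotype difference was not tested. That few genes passed does not show that the genotypes resolved alike.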

How the data were processed

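Single-colour Agilent arrays measured RNA of 12 bone marrow macrophage samples (2 mice per genotype, each mouse's cells untreated and after LPS 3 h and 24 h). The deposited scanner files hold processed intensity per spot, made with Feature Extraction 10.7.3.1 per the submitters' processing notes, with coordinates of the mm9 design. The deposited value table holds log2 values centred on each array's 75th percentile: at least 99.4% of its values per array lay within 0.01 of those computed here, with column medians of -4.51 to -4.30.

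The log2 of the processed intensity minus the array's 75th percentile was analysed. Control spots and outlier spots were left out, and spots of one probe were averaged. A probe was kept if the 2 arrays of some group both called it well above background, which left 28426 of 39429. Each of the 22974 genes was represented by its brightest probe on average. Names were updated through RefSeq accessions and symbols for 78.7% of probes. One mean per group was fitted to all 12 arrays with limma 3.58.1 (lmFit, eBayes, R 4.3.3), with 6 residual degrees of freedom. The Benjamini-Hochberg threshold was 0.05. If neither array of the lower time called a gene well above background, its fold change is a bound ("at least") against the lowest signal called so on each array. Sums and sequences were handled in Python 3.11.15 with pandas 2.3.3 and numpy 2.4.6, and figures drawn with matplotlib 3.10.9. The fit was tried on simulated arrays in which 50 genes of each size of change differed between knockout 24 h and 3 h. It recovered 12% of log2 changes of 0.5, 56% of 1, 90% of 2 and 100% of 4. Of its 131 calls, 2 were false. Far fewer genes changed there than passed in the data, so these shares do not carry over directly.

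The genes named were the 10 with the largest rise and the 10 with the largest fall among genes above background at both times, the 6 of each with the largest bound, the 5 early genes of each direction with the smallest change and the 5 with the largest return, the largest genotype differences past the test, and in each list its key members with its largest riser and faller. Other list members (such as Cyld and Ccl12) were named after their values were seen. The early genes, lists and comparisons were chosen with earlier results of these data known. The labels tie the samples of a number to one mouse, and the deviations of the knockout 24 h and 3 h arrays of a mouse from their group means correlated (r = 0.121 over genes), so mouse was added as a block in an alternative fit. The arrays' number limits the precision. Some genes are not reported here, although they count in the totals.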

Additional observations from a re-analysis of the deposited data

Results flagged for a closer look

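Syne2, which encodes nesprin 2, was the gene whose change between 3 h and 24 h differed between the genotypes in the test of that difference (-1.92 on the log2 scale, adjusted p = 0.0493 in limma). The knockout change was -4.67 and the wildtype change -2.75. This call did not hold with only the arrays of the groups compared, the mouse block, no filter on dim probes or the mean over probes.

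For Il1rn and Irak3 every knockout sample pair moved one way and every wildtype pair the other. The share of all genes with such a pattern was not counted, so the pattern is no result about Il1rn or Irak3. Il1rn, which encodes the interleukin 1 receptor antagonist, read 4.23 and 3.77 at 24 h and 4.45 and 3.85 at 3 h in knockout cells, and 3.97 and 3.87 at 24 h and 3.16 and 3.06 at 3 h in wildtype cells. The knockout change was -0.15 (adjusted p = 0.649) and the wildtype change 0.81 (adjusted p = 0.0292), and the difference of -0.96 did not pass (adjusted p = 0.274). Irak3, an inhibitor of the kinases downstream of MyD88, read 0.21 and 0.21 at 24 h and 0.71 and 0.37 at 3 h in knockout cells, and 0.94 and 0.74 at 24 h and 0.53 and 0.38 at 3 h in wildtype cells. The knockout change was -0.33 (adjusted p = 0.0536) and the wildtype change 0.38 (adjusted p = 0.0342), and the difference of -0.72 did not pass (adjusted p = 0.163).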

How the results depend on the processing

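The number of arrays, the pairing of slide with LPS time and the signal over background limit all these results: genes below background have only a bound, and a lone sample left by omitting 1 array is assumed to vary like the other groups. The 13538 genes past the test for knockout cells numbered 13997 with mouse as a replicate block, 10074 with only the arrays of the groups compared and 12019 to 12684 without 1 array (5418 to 5870 higher, 6380 to 7178 lower). A change of at least 2-fold left 5812, of which 2500 were higher and 3312 lower. The shares of higher and lower calls moved with the scaling, with 44.7% of calls higher, 57.3% with normexp background correction and 51.5% with quantile normalization.

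The genotype difference, past the test for 1 gene, passed for 10 genes with normexp, 13 with quantile normalization, 34 with the deposited value table and 27 with only probes above background on all arrays. It passed for 0 genes in limma with no filter, with the mean over probes, with only the arrays of the groups compared and with the mouse block, and for 0 to 216 without 1 array. Among cytokines 2 rose with normexp, quantile normalization, the percentile over detected probes, the value table, the all-array filter and the block, and 10 fell with the all-array filter. Immediate early risers numbered 2 with quantile normalization and with the mean over probes. Risers numbered 1 for arginine metabolism with the all-array filter, 0 for cholesterol synthesis with the mean over probes, and 1 for hypoxia, 5 for DNA replication and 5 for receptors with only the arrays compared. Replication genes that fell numbered 1 with normexp and 2 with the block. Of early repressed genes, 1.8% fell with the all-array filter and 2.1% with an 8-fold definition. The block changed no other list count past this measure.

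Without 1 array, risers numbered 1 to 2 for cytokines, 1 to 2 for chemokines, 1 to 2 for immediate early genes, 3 to 5 for MHC and costimulation, 1 for arginine metabolism and 5 to 12 for DNA replication. Fallers numbered 8 to 12 for chemokines, 4 to 6 for arginine metabolism, 2 to 3 for efflux genes and 0 to 1 for DNA replication, and 3.0% to 4.9% for early repressed genes. Direction reversed for Kcne3 (-0.69) and Srebf2 (-0.41) with the mean over probes, and for Mcpt8 with normexp (0.34) and the value table (0.34). The cause of these moves was not tested. Of the named genes, Il10, Csf3, Cxcl10, Egr1, Arg1 and Cd3e were among those that lost their call in at least 1 alternative. Syne2 lost its call for the genotype difference, and Srebf2 its rise with the mean over probes. The lower counts of risers and fallers given above hold further losses among list members.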
